A study of Mus musculus with 16 samples.

Results

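Ligands and receptors of the epidermal growth factor (EGF) family were followed through lungs exposed to crystalline silica (CS). The list held 8 genes: the ligands Ereg, Areg, Hbegf, Tgfa and Btc and the receptors Egfr, Erbb2 and Erbb3. They were found by symbol in the platform annotation, with 1 probe set per gene, the one with the highest mean over all arrays. Of the 8 genes, 7 had a probe set of their own among 19938 genes measured. Areg, the amphiregulin gene, had none under its symbol in the annotation used and is not analysed here. The values are log2 expression levels in total lung RNA on 16 Affymetrix whole-transcript arrays.

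All mice were C57BL/6, aged 10 to 12 weeks per the labels, and were given either CS or its vehicle, phosphate-buffered saline (PBS), by way of the trachea. The day 60 groups were BLT1-/-KRasLA1 and BLT1+/+KRasLA1 lungs, and the day 2 groups were BLT1-/- and BLT1+/+ lungs without that allele. Each genotype had 3 CS lungs, labelled as biological replicates, and 1 PBS array that holds the pooled RNA of 3 mice, which makes 8 groups. BLT1, encoded by Ltb4r1, is a receptor through which leukotriene B4 draws neutrophils. In KRasLA1 mice single cells activate an oncogene by chance recombination, and lung tumors follow. Day and KRasLA1 went together, so their effects cannot be told apart. The comparisons asked how silica acts on these lungs and whether BLT1 matters to it.

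EGF family ligands are made as membrane proteins, and proteases at the cell surface release their active part. The released ligand joins ErbB receptors into pairs, whose kinases then signal through RAS and ERK to target genes and to feedback inhibitors. In the lung, the family is known for epithelial repair after injury, and mutated EGFR is a driver of human lung adenocarcinoma.

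Several arrays stood apart before any comparison. The Y-linked gene Eif2s3y lay at 10.09 in the second BLT1+/+KRasLA1 CS lung, with the X-inactivation transcript Xist at 6.61. In the day 60 PBS pools Eif2s3y lay at 9.04 for BLT1-/-KRasLA1 and 9.68 for BLT1+/+KRasLA1, against 4.27 to 4.74 in the other 13 arrays. The day 60 CS minus PBS differences thus set CS lungs of which 1 in 6 holds Y-linked RNA against pools that both hold it. The comparisons between days set day 60 groups that in part hold it against day 2 groups that do not. Its part in these differences was not tested. Day 60 responses of the members are also given without the CS lung that holds it. Those fits set CS lungs without Y-linked RNA against the same pools that hold it, so they do not even out this difference. Ltb4r1 lay between 7.22 and 7.63 in all groups and differed by -0.08 ± 0.08 between BLT1-/-KRasLA1 and BLT1+/+KRasLA1 CS lungs (adjusted p = 0.967), so it does not check the genotype labels. Between BLT1-/- and BLT1+/+ CS lungs at day 2 it differed by -0.19 ± 0.08 (adjusted p = 0.522). Lung epithelial markers were high in every group: the surfactant gene Sftpc lay between 14.25 and 14.47, and the summed level of 11 epithelial markers between 16.76 and 16.89 on the log2 scale.

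Ereg and Hbegf were the 2 members that rose with silica, and they did so at day 2. A response is the CS minus PBS difference in log2 level, averaged over both BLT1 genotypes unless a genotype is named, with its standard error. A gene passed the test when its adjusted p from limma, taken over all 19938 genes, was under 0.05. At day 60, 0 of 7 members passed, beside 4.02% of all genes. An unadjusted p under 0.05 was held by 0 of 7 members and by 2804 of 19938 genes. At day 2, 2 of 7 members passed, both higher, against 8.03% of all genes that passed as higher and 4.37% that passed as lower. The median response of the 7 members was -0.06 at day 60 and 0.06 at day 2, beside -0.03 and -0.02 over all genes.

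**Figure D1:**
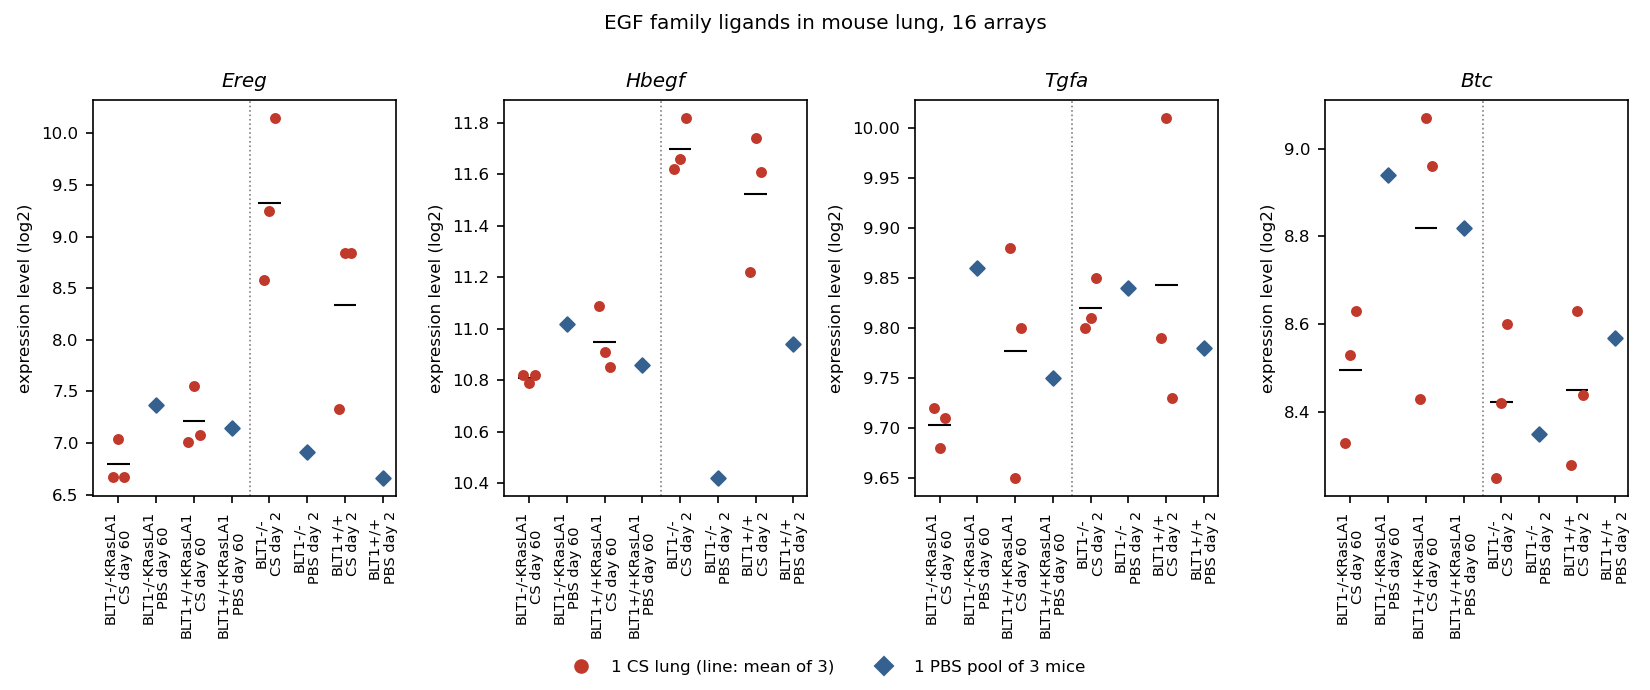
Log2 expression level (y axis) of 4 EGF family ligands in the 8 groups (x axis); red points are single CS lungs with a line at their mean, blue diamonds are PBS pools, and the dotted line parts day 60 from day 2. For Ereg the 6 CS lungs at day 2 reach from 7.33 to 10.15, while all day 60 arrays lie at or below 7.55.

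Ereg encodes epiregulin, a low-affinity ligand of EGFR and ErbB4 that is often induced by inflammation and by mitogens. Its probe set is 10523175, and its gene lies on chromosome 5. Its mean level stood at the 31.4th percentile of all genes, in the lower part of the scale, where arrays can understate changes. Whether this held for Ereg was not tested. At day 60 the BLT1-/-KRasLA1 CS lungs had log2 levels of 6.67, 7.04 and 6.67, against 7.37 in their PBS pool. The BLT1+/+KRasLA1 CS lungs had 7.01, 7.55 and 7.08, against 7.15 in theirs. CS lungs of the first genotype all lay below the pool, as for 28.1% of all genes, and those of the second lay on both sides of it. At day 2 the BLT1-/- CS lungs reached 8.58, 9.25 and 10.15, against 6.91 in their PBS pool. The BLT1+/+ CS lungs reached 7.33, 8.84 and 8.84, against 6.66 in theirs. All 6 CS lungs thus lay above both day 2 pools, as for 12.1% of all genes. Of them, 5 lay above every other array of the series, a position seen in the values whose share over all genes was not counted.

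The mean Ereg response at day 60 was -0.26 ± 0.39 (95% interval -1.11 to 0.59, adjusted p = 0.858), and -0.34 without the lung that holds Y-linked RNA. At day 2 it was 2.04 ± 0.39, a 4.13-fold rise (95% interval 1.20 to 2.89, adjusted p = 0.00483). The day 60 response minus the day 2 response came to -2.30 ± 0.56 (adjusted p = 0.049), close to the threshold. Without the second BLT1+/+KRasLA1 CS lung that adjusted p was 0.0551, and over each of the 12 CS lungs left out in turn the difference ran from -2.55 to -2.10 and lost the call in 9 cases (adjusted p up to 0.0862, without the second BLT1+/+ CS lung of day 2). The range of Ereg over the 16 arrays, 3.49, exceeded that of 99.7% of genes, and its SD within CS groups was 0.62.

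Hbegf encodes heparin-binding EGF-like growth factor, a ligand of EGFR and ErbB4 that epithelium and macrophages make. Its probe set is 10458340, on chromosome 18, at the 89.7th percentile of mean levels. At day 60 the BLT1-/-KRasLA1 CS lungs had log2 levels of 10.82, 10.79 and 10.82, against 11.02 in their PBS pool. The BLT1+/+KRasLA1 CS lungs had 11.09, 10.91 and 10.85, against 10.86 in theirs. These day 60 levels stayed within a narrow band. At day 2 the BLT1-/- CS lungs reached 11.62, 11.66 and 11.82, against 10.42 in their PBS pool. The BLT1+/+ CS lungs reached 11.22, 11.74 and 11.61, against 10.94 in theirs. All 6 CS lungs of day 2 lay above both day 2 pools, as for 12.1% of all genes. They also lay above every day 60 array, a position whose share over all genes was not counted.

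The mean Hbegf response at day 60 was -0.06 ± 0.11 (95% interval -0.30 to 0.18, adjusted p = 0.883), and -0.05 without the lung that holds Y-linked RNA. At day 2 it was 0.94 ± 0.11, a 1.91-fold rise (95% interval 0.70 to 1.18, adjusted p = 0.000302). The responses differed between days by -0.99 ± 0.16 (adjusted p = 0.00509; without that lung, 0.0098). In this difference of responses 2 of 7 members passed as lower, against 0.657% of all genes. Within each genotype at day 2 the CS lung with the lowest Ereg also had the lowest Hbegf.

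Each genotype has 1 PBS pool, so a response averaged over genotypes cannot be had without a pool: the fit that leaves 1 out takes the response of that day from the other genotype alone. Those day 2 values are the single-genotype responses given next. For the difference between days in such fits, the adjusted p of Ereg was 0.0692 or more whichever of the 4 pools was left out. That of Hbegf was 0.269 with the day 2 response from BLT1+/+ lungs alone and 0.0994 with the day 60 response from BLT1+/+KRasLA1 lungs alone. The day 2 pools also differed in neutrophil markers: the summed log2 level of 10 markers was 13.84 to 14.48 in BLT1-/- CS lungs against 14.54 in their pool, and 13.85 to 14.75 in BLT1+/+ CS lungs against 13.91 in theirs. The part of these markers in the ligand responses was not tested.

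In BLT1-/- lungs at day 2 taken alone, Ereg rose by 2.42 ± 0.56 (5.33-fold, adjusted p = 0.0234) and Hbegf by 1.29 ± 0.16 (2.44-fold, adjusted p = 0.00136), 2 of 7 members where 5.19% of all genes passed as higher. In BLT1+/+ lungs the differences were 1.67 ± 0.56 for Ereg (3.19-fold, adjusted p = 0.191) and 0.59 ± 0.16 for Hbegf (1.5-fold, adjusted p = 0.0982). There 0 of 7 members passed, 2 had an unadjusted p under 0.05, and 1.16% of all genes passed. With same-numbered lungs as a replicate block, a fit whose errors are too small because the pools carry no number, the adjusted p in BLT1+/+ lungs was 0.004 for Ereg and 0.0314 for Hbegf. The first BLT1+/+ CS lung was the lowest for both ligands, and without it these differences were 2.18 (adjusted p = 0.0168) and 0.74 (adjusted p = 0.00446).

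The remaining ligands measured, Tgfa and Btc, did not pass at either day. Their promoters are shown here beside that of Egfr, since these are the members with a RefSeq promoter entry that set the ligands without a called response beside the receptor described below. The windows hold 300 bases around each gene's start, most of them upstream, from RefSeq on GRCm38.p6, where 4 of the 7 measured members matched: Tgfa at chr6:86194972-86195271 on the plus strand, Btc at chr5:91402945-91403244 on the minus strand, Egfr at chr11:16751953-16752252 on the plus strand, and Erbb2. Capitals mark matches on either strand to the GC box GGGCGG or, at the 3′ end of the Tgfa window, to an NF-kappaB site.
Tgfa: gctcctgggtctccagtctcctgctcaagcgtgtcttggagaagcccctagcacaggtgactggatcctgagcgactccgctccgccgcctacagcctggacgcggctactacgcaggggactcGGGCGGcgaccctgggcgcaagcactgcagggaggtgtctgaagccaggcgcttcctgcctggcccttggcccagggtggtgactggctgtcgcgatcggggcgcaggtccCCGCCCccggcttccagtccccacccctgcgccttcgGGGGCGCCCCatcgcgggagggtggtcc
Btc: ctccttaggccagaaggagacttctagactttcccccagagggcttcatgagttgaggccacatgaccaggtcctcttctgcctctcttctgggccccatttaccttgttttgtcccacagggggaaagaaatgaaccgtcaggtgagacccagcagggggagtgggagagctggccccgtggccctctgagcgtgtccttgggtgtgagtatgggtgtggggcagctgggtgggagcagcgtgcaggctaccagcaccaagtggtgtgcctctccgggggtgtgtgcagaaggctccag
Egfr: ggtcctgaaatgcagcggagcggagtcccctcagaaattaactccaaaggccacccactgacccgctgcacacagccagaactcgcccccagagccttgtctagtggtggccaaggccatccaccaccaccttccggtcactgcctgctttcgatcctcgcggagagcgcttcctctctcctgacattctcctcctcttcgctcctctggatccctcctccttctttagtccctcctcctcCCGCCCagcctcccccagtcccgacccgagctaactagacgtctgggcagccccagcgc
The Tgfa window held 2 GC boxes and 1 NF-kappaB site, the Egfr window 1 GC box, and the Btc window none of the motifs searched. The GC box occurred in 35.7% of 32851 RefSeq promoter windows of the same length, and the NF-kappaB site in 8.46%. The AP-1 site TGANTCA (7.81% of windows), the cAMP response element TGACGTCA (1.79%) and the TATA box TATAAA (13.6%) were not among the letters of these 3 windows on either strand. Their GC content was 70.7% for Tgfa, 60.3% for Btc and 62.3% for Egfr, beside a median of 52.7%. A match is a stretch of letters and was not tested for binding.

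Tgfa encodes transforming growth factor alpha, a ligand of EGFR (probe set 10539692, chromosome 6). At day 60 the BLT1-/-KRasLA1 CS lungs had log2 levels of 9.72, 9.68 and 9.71, against 9.86 in their PBS pool, and the BLT1+/+KRasLA1 CS lungs 9.88, 9.65 and 9.80, against 9.75. The BLT1-/- CS lungs of day 2 had 9.80, 9.81 and 9.85, against 9.84, and the BLT1+/+ CS lungs 9.79, 10.01 and 9.73, against 9.78. CS lungs and pools overlapped in all but the first of these genotypes, and the range over the 16 arrays, 0.36, was wider than that of only 17.5% of genes. The response was -0.06 ± 0.08 at day 60 (95% interval -0.24 to 0.11, adjusted p = 0.819) and 0.03 ± 0.08 at day 2 (95% interval -0.15 to 0.20, adjusted p = 0.886).

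Btc encodes betacellulin, which binds EGFR and ErbB4 (probe set 10531274, chromosome 5). At day 60 the BLT1-/-KRasLA1 CS lungs had log2 levels of 8.33, 8.53 and 8.63, against 8.94 in their PBS pool, and the BLT1+/+KRasLA1 CS lungs 8.43, 9.07 and 8.96, against 8.82. The BLT1-/- CS lungs of day 2 had 8.25, 8.42 and 8.60, against 8.35, and the BLT1+/+ CS lungs 8.28, 8.63 and 8.44, against 8.57. The spread between CS lungs was wide, with an SD within groups of 0.23. The response was -0.22 ± 0.16 at day 60 (95% interval -0.56 to 0.12, adjusted p = 0.629) and -0.02 ± 0.16 at day 2 (95% interval -0.36 to 0.32, adjusted p = 0.955). The intervals at day 2 leave out, for Tgfa and Btc alike, a rise as large as that of Hbegf.

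**Figure D2:**
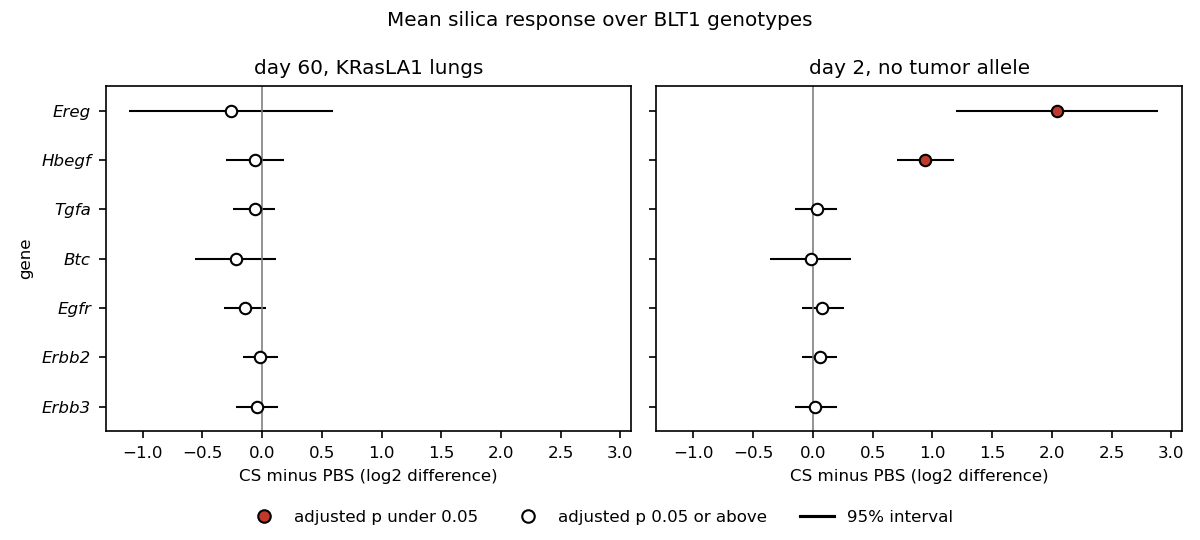
Mean silica response (x axis, CS minus PBS in log2 units, averaged over BLT1 genotypes) of each measured member (y axis), at day 60 in the left panel and day 2 in the right, with 95% intervals; filled points passed the test. Ereg at 2.04 and Hbegf at 0.94 stand off 0 at day 2, and all 7 intervals include 0 at day 60.

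Ereg, Areg and Btc are neighbours on chromosome 5, next to Epgn, which encodes the further EGFR ligand epigen, and near a cluster of CXC chemokine genes. The order is that of protein-coding genes in the RefSeq table of GRCm38.p6, and the neighbours were chosen after their values were seen. Epgn, beside Ereg, responded by 0.04 ± 0.11 at day 60 (adjusted p = 0.925) and 0.05 ± 0.11 at day 2 (adjusted p = 0.835). Btc, on the far side of Areg, did not pass either. On the Epgn side, Mthfd2l, a mitochondrial folate enzyme, was at -0.02 ± 0.09 at day 60 (adjusted p = 0.967) and rose by 0.37 ± 0.09 at day 2 (adjusted p = 0.0172). Next to it, the chemokine gene Cxcl2 rose by 2.51 ± 0.49 at day 60 (adjusted p = 0.0102; 0.0221 without the lung that holds Y-linked RNA), and its day 2 rise was 4.31 ± 0.49 (adjusted p = 0.000255). Cxcl1 responded by 0.61 ± 0.16 at day 60 (adjusted p = 0.0511). It passed there in 3 of 12 fits without 1 CS lung (adjusted p from 0.00634 to 0.102). The lowest came without the first BLT1+/+ CS lung of day 2, which enters the day 60 test only through the shared variance. At day 2 Cxcl1 rose by 1.07 ± 0.16 (adjusted p = 0.00114). Further along the cluster, Cxcl3, a chemokine gene close to Cxcl2 in function, responded by 1.03 ± 0.32 at day 60 (adjusted p = 0.108). It passed there in 2 of 12 fits without 1 CS lung (adjusted p from 0.00265 to 0.195), the lowest without the third BLT1+/+ CS lung of day 2. At day 2 Cxcl3 rose by 1.63 ± 0.32 (adjusted p = 0.00518). Ppbp, a chemokine gene of platelets, was at -0.36 ± 0.21 at day 60 (adjusted p = 0.524), while at day 2 it fell by 1.14 on the log2 scale (adjusted p = 0.00415). Pf4, the platelet factor 4 gene, was at 0.20 ± 0.11 at day 60 (adjusted p = 0.467) and -0.02 ± 0.11 at day 2 (adjusted p = 0.945). Cxcl15, a chemokine gene of lung epithelium, was at -0.05 at day 60 (adjusted p = 0.796) and -0.04 at day 2 (adjusted p = 0.707). With the day 2 response taken from 1 genotype alone, the adjusted p was 0.378 for Ppbp in BLT1+/+ lungs and 0.12 for Cxcl3 in BLT1-/- lungs. Past Btc, Parm1 responded by 0.37 ± 0.14 at day 60 (adjusted p = 0.197) and -0.12 ± 0.14 at day 2 (adjusted p = 0.669). Genes that passed thus lay side by side with genes that did not at day 2.

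**Figure D3:**
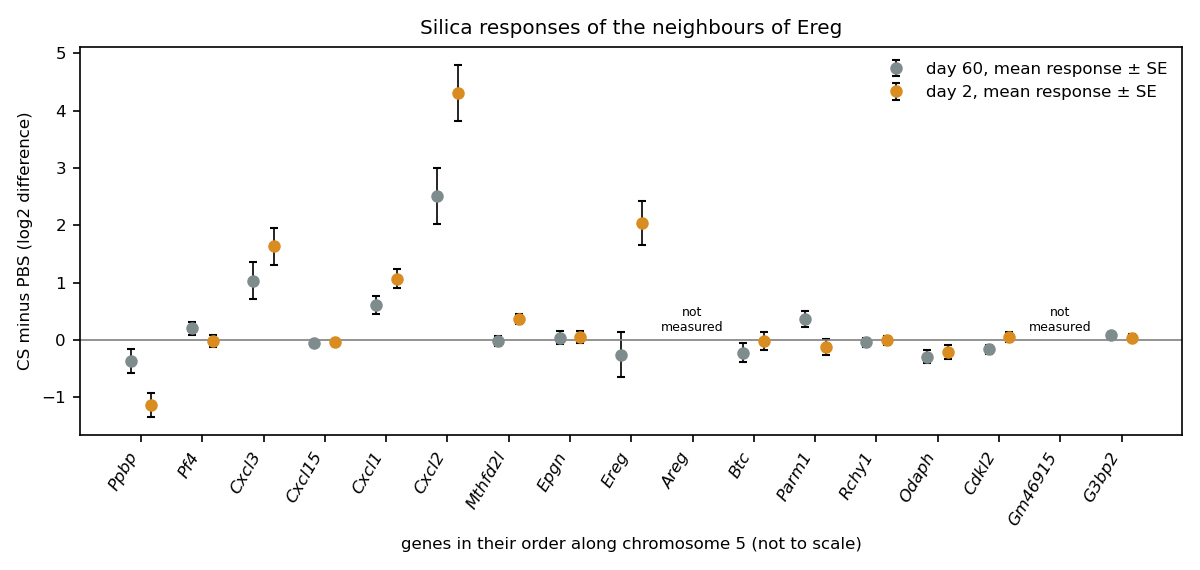
Mean silica response ± SE (y axis, CS minus PBS in log2 units) of Ereg and its protein-coding neighbours, in gene order along chromosome 5 (x axis, not to scale), at day 60 in grey and day 2 in orange. At day 2 Ereg at 2.04 stands beside Epgn at 0.05, with Cxcl2 at 4.31 further along.

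The receptors showed no called response to silica at either day, but the level of Egfr was lower at day 60 than at day 2. Egfr encodes the receptor of the EGF ligands above (probe set 10374366, chromosome 11). At day 60 the BLT1-/-KRasLA1 CS lungs had log2 levels of 9.48, 9.76 and 9.66, against 9.78 in their PBS pool. The BLT1+/+KRasLA1 CS lungs had 9.78, 9.61 and 9.74, against 9.85 in theirs. All 6 CS lungs lay below the pool of their own genotype, a position that 12.6% of all genes held. At day 2 the BLT1-/- CS lungs had 10.13, 10.16 and 10.24, against 10.02 in their PBS pool. The BLT1+/+ CS lungs had 10.34, 10.41 and 10.27, against 10.33 in theirs. Here 5 of 6 CS lungs lay above their own pool, where 26.2% of all genes had 5 or more. The response was -0.14 ± 0.08 at day 60 (95% interval -0.32 to 0.03, adjusted p = 0.493; -0.12 with adjusted p = 0.677 without the lung that holds Y-linked RNA) and 0.08 ± 0.08 at day 2 (95% interval -0.09 to 0.26, adjusted p = 0.612).

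The 8 day 60 arrays lay between 9.48 and 9.85 for Egfr, below all 8 day 2 arrays, which lay between 10.02 and 10.41. This comparison of all groups between days was added after the values were seen. Egfr was lower by -0.47 ± 0.06 in the day 60 groups, 1.39-fold (95% interval -0.60 to -0.35, adjusted p = 0.000283; -0.46 with adjusted p = 0.000506 without the lung that holds Y-linked RNA). It was the 1 member of 7 that passed, against 6.02% of all genes that passed as lower and 6.89% as higher, and 1.54% of genes had all day 60 arrays below all day 2 arrays. Between the PBS pools of the 2 days alone the difference was -0.36 ± 0.10 (adjusted p = 0.161). In that comparison 0 of 7 members passed, 2 had an unadjusted p under 0.05, and 0.396% of all genes passed. Both day 60 pools hold Y-linked RNA (Eif2s3y at 9.04 and 9.68), and the day 2 arrays do not (4.27 to 4.53). Its part in the Egfr difference between days was not tested.

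Some cell type markers also differed between day 60 and day 2, in a comparison where 6.89% of all genes passed as higher and 6.02% as lower. At day 60 against day 2, 9 of 10 neutrophil markers were lower, with a summed log2 level of 11.70 to 13.67 over the day 60 arrays and 13.84 to 14.75 over the day 2 arrays. Of 8 fibroblast and mesothelium markers 3 were lower, with sums of 13.94 to 14.24 at day 60 and 14.20 to 14.44 at day 2. Of 11 monocyte and macrophage markers 4 were higher and 2 lower, with sums of 13.55 to 14.69 at day 60 and 13.59 to 14.32 at day 2. Of 8 heart muscle markers 3 were lower, with sums of 13.11 to 14.17 at day 60 and 13.03 to 14.31 at day 2. Of 11 lung epithelial markers 2 were higher and 0 lower, 1 of 6 regulatory T cell and ILC2 markers was higher, and 0 of 8 mast cell and basophil markers passed. The part of these markers in the Egfr difference was not tested, and in whole-lung RNA fewer cells of a type and less RNA per cell cannot be told apart.

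**Figure D4:**
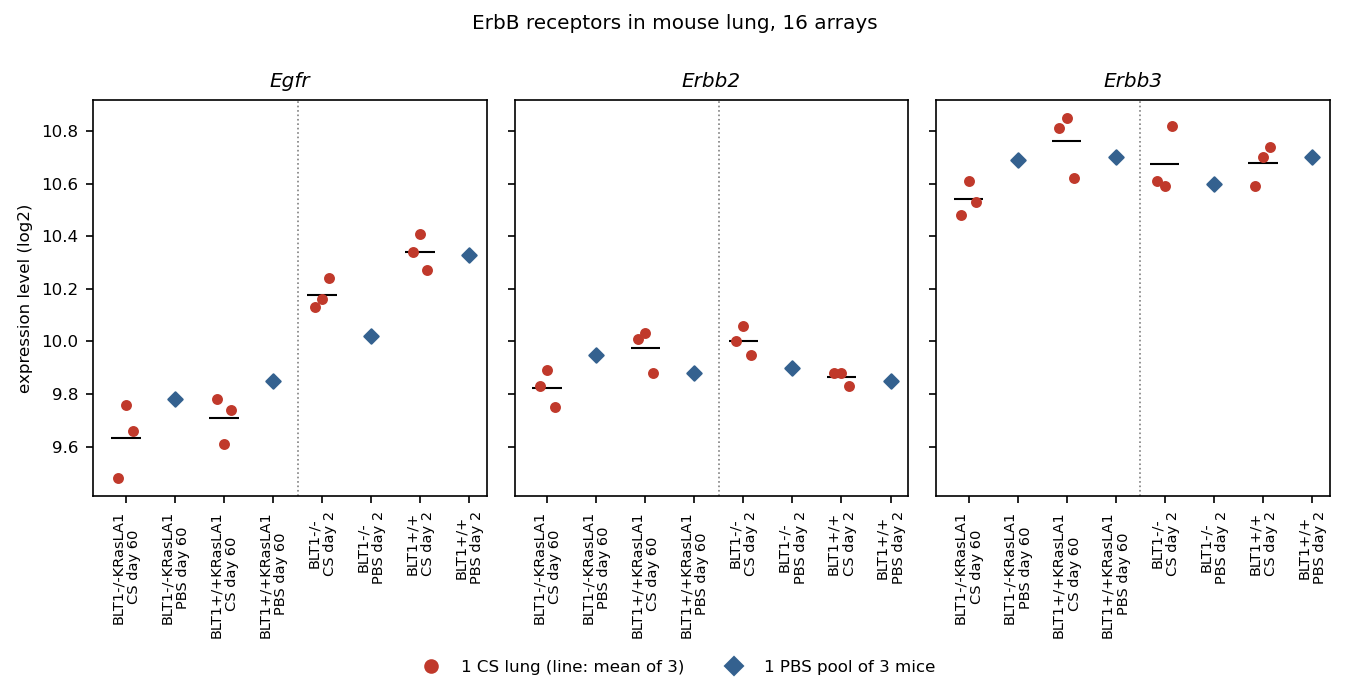
Log2 expression level (y axis) of Egfr, Erbb2 and Erbb3 in the 8 groups (x axis), drawn as for the ligands and on 1 shared scale for reading within each gene. Egfr lies between 9.48 and 9.85 in the day 60 arrays and between 10.02 and 10.41 in the day 2 arrays, while Erbb2 and Erbb3 range over 0.32 and 0.37 in all.

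Erbb2 encodes the receptor without a known ligand that pairs with the other ErbB receptors (probe set 10380896, chromosome 11). A further probe set that the annotation gives to both Erbb2 and Sympk was not used. Over the 6 CS lungs of day 60 Erbb2 ran from 9.75 to 10.03, against 9.95 and 9.88 in their pools, and over the 6 CS lungs of day 2 from 9.83 to 10.06, against 9.90 and 9.85. The response was -0.02 ± 0.07 at day 60 (adjusted p = 0.943) and 0.06 ± 0.07 at day 2 (95% interval -0.09 to 0.20, adjusted p = 0.68). Its range over the 16 arrays was the narrowest of the 7 members. Erbb3 encodes the neuregulin receptor with an impaired kinase (probe set 10373467, chromosome 10). It ran from 10.48 to 10.85 over the CS lungs of day 60, against 10.69 and 10.70 in their pools, and from 10.59 to 10.82 over those of day 2, against 10.60 and 10.70. Its response was -0.04 ± 0.08 at day 60 (adjusted p = 0.878) and 0.02 ± 0.08 at day 2 (95% interval -0.15 to 0.20, adjusted p = 0.897). Without the lung that holds Y-linked RNA, the day 60 responses were -0.03 for Tgfa, -0.28 for Btc, -0.03 for Erbb2 and -0.07 for Erbb3, and 0 of the 7 members passed.

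In BLT1-/-KRasLA1 lungs at day 60, all 3 CS lungs lay below the PBS pool for each of the 7 members, the position that 28.1% of all genes held. The differences ran from -0.58 for Ereg (adjusted p = 0.887) to -0.13 for Erbb2 (adjusted p = 0.844), with -0.44 ± 0.22 for Btc (adjusted p = 0.624). None of the 7 passed (0 also at an unadjusted p under 0.05, and 1.17% of all genes passed), and all 7 differences share the 1 pool. In BLT1+/+KRasLA1 lungs they ran from -0.15 for Egfr (adjusted p = 0.822) to 0.09 for Hbegf and Erbb2, with 0 of 7 passing, 0 at an unadjusted p under 0.05, and 0.762% of all genes passing.

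No member passed between BLT1 genotypes. Among CS lungs at day 60, BLT1-/-KRasLA1 against BLT1+/+KRasLA1, 0 of 7 passed in limma, 2 had an unadjusted p under 0.05, and 0.0401% of all genes passed. Erbb3 differed by -0.22 ± 0.08 (adjusted p = 0.967), with the BLT1-/-KRasLA1 lungs at 10.48, 10.61 and 10.53, against 10.81, 10.85 and 10.62 in BLT1+/+KRasLA1 lungs. These lungs did not overlap, nor did those for Hbegf, a position held by 5.92% of all genes in that direction. Without the lung that holds Y-linked RNA, which is 1 of the BLT1+/+KRasLA1 lungs, Erbb3 differed by -0.18 and Hbegf by -0.16 (adjusted p = 1 for each).

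Among CS lungs at day 2, BLT1-/- against BLT1+/+, 0 of 7 passed, 1 had an unadjusted p under 0.05, and 0.0201% of all genes passed. Ereg differed by 0.99 ± 0.39 (95% interval 0.14 to 1.84, adjusted p = 0.483), and the genotypes overlapped between 8.58 and 8.84. The labels give no pairing of these lungs. Same-numbered lungs deviated together at day 2 (r = 0.43, 0.20 and 0.34, against -0.40 to 0.10 for lungs with different numbers). Taken as pairs on that ground, Ereg was higher in the BLT1-/- lung in 3 of 3. The share of all genes in that position was not counted. With the number as a replicate block the difference was 0.99 ± 0.15 and still did not pass (adjusted p = 0.073). Egfr differed by -0.17 ± 0.08 (adjusted p = 0.6) with no overlap, a position held by 6.13% of genes. Erbb2 differed by 0.14 ± 0.07 (adjusted p = 0.587) with no overlap in the other direction, as for 6.31% of genes.

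The test of whether the silica response itself differed between BLT1 genotypes found 0 genes of 19938 at either day in limma, with 396 genes at an unadjusted p under 0.05 at day 60 and 896 at day 2. Among the members, 0 of 7 had an unadjusted p under 0.05 at day 60 and 1 did at day 2. That was Hbegf, whose response was larger in BLT1-/- than in BLT1+/+ lungs by 0.70 ± 0.22 (unadjusted p = 0.00746, adjusted p = 0.82). Its BLT1-/- and BLT1+/+ CS lungs overlapped at day 2, and the pools lay at 10.42 and 10.94. For Ereg the difference of responses was 0.74 ± 0.79 (95% interval -0.96 to 2.44, adjusted p = 0.841).

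Genes that act around the receptors were counted by role. Of 7 other ligands and receptor genes (Egf, Epgn, the neuregulins and Erbb4), 0 passed at day 60 in limma, with 2 at an unadjusted p under 0.05, and 0 passed at day 2, with 1. Nrg1, which encodes a ligand of ErbB3 and ErbB4, had the smallest p at day 60, at -0.30 ± 0.09 (adjusted p = 0.087; 0.144 without the lung that holds Y-linked RNA). Erbb4, the receptor gene shared by several of these ligands, had it at day 2, at -0.21 ± 0.09 (adjusted p = 0.181).

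Of 10 genes for the shedding of ligands, 3 passed at day 60 and 2 at day 2, all higher, with median responses of 0.10 and 0.17. Over all genes, 3.35% passed as higher at day 60 and 8.03% at day 2. Adam17, the main sheddase of several EGF ligands, rose by 0.39 ± 0.08 at day 60 (adjusted p = 0.0114), and Adam8, a metalloprotease of myeloid cells, by 0.90 ± 0.19 (adjusted p = 0.0171). Rhbdf2 encodes the pseudoprotease that carries ADAM17 to the cell surface. Its rise was 0.31 ± 0.07 at day 60 (adjusted p = 0.0229), beside 0.39 ± 0.07 at day 2 (adjusted p = 0.00343). Adam12, a metalloprotease that can shed Hbegf, rose by 0.81 ± 0.20 at day 2 (adjusted p = 0.02). All 3 genes at day 60 also passed without the lung that holds Y-linked RNA, a fit in which both pools still hold it. Within each genotype taken alone 0 passed at day 60. At day 2 the count was 0 in BLT1-/- and 1 in BLT1+/+ lungs, where 1.16% of all genes passed. Of 13 receptor inhibitors and turnover genes, 1 passed at day 60 and 0 at day 2, with 4 at an unadjusted p under 0.05. Sh3kbp1, an adaptor in receptor endocytosis, rose by 0.31 ± 0.07 at day 60 (adjusted p = 0.0212). Cblc, a ubiquitin ligase of the receptors, had the smallest p at day 2, at 0.28 (adjusted p = 0.0588). It passed in 3 of 12 fits that left out 1 CS lung, with adjusted p from 0.0421 (without the second BLT1+/+KRasLA1 lung) to 0.1. Without the third BLT1-/-KRasLA1 CS lung, the adjusted p at day 60 was 0.0563 for Rhbdf2 and 0.055 for Sh3kbp1.

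Of 17 measured adaptors and kinases of the pathway, 0 passed at day 60, with 3 at an unadjusted p under 0.05. At day 2, 1 passed as higher and 2 as lower, against 8.03% and 4.37% of all genes. Stat3, a transcription factor that receptors and cytokines activate, was at 0.20 at day 60 (adjusted p = 0.105) and rose by 0.22 ± 0.06 at day 2 (adjusted p = 0.0346). Plcg1, a phospholipase bound by activated receptors, fell by 0.31 on the log2 scale (adjusted p = 0.0388), and Gab1, a docking protein, fell by 0.26 (adjusted p = 0.0419). These 3 calls lie near the threshold and each was lost when 1 of several CS lungs was left out. The adjusted p reached 0.0667 for Stat3 and 0.0726 for Plcg1 without the second BLT1+/+ CS lung of day 2, and 0.0666 for Gab1 without the third BLT1-/- CS lung.

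Target and feedback genes of the ERK kinases were counted next. Of 23 genes, 1 passed at day 60, higher, and 12 at day 2, of which 11 were higher and 1 lower, against 3.35% of all genes higher at day 60 and 8.03% higher and 4.37% lower at day 2. The median response of the group was 0.01 at day 60 and 0.28 at day 2, beside -0.03 and -0.02 over all genes. Myc, a growth transcription factor, rose by 0.99 ± 0.12 at day 2 (adjusted p = 0.000367). Plaur, the urokinase receptor, rose by 0.57 ± 0.14 at day 60 (adjusted p = 0.0319; 0.0621 without the lung that holds Y-linked RNA) and by 0.83 ± 0.14 at day 2 (adjusted p = 0.00191). Ier3, an early response gene, rose by 0.55 ± 0.09 at day 2 (adjusted p = 0.00239), and Junb, a subunit of AP-1, by 0.66 ± 0.12 (adjusted p = 0.00297). Etv5, an ETS factor of alveolar type 2 cells named here after its value was seen, fell by 0.33 on the log2 scale at day 2 (adjusted p = 0.0257; 0.051 without the second BLT1+/+ CS lung). The Plaur call at day 60 was also lost without other single lungs, up to 0.0698 without the third BLT1-/-KRasLA1 CS lung. Many of these genes also answer to other signals. Against these 12 genes in the mean over genotypes at day 2, 7 passed in BLT1-/- lungs and 1 in BLT1+/+ lungs taken alone. Of all genes, 5.19% passed as higher in BLT1-/- lungs and 1.16% in either direction in BLT1+/+ lungs. The difference between genotypes called 0.

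**Figure D5:**
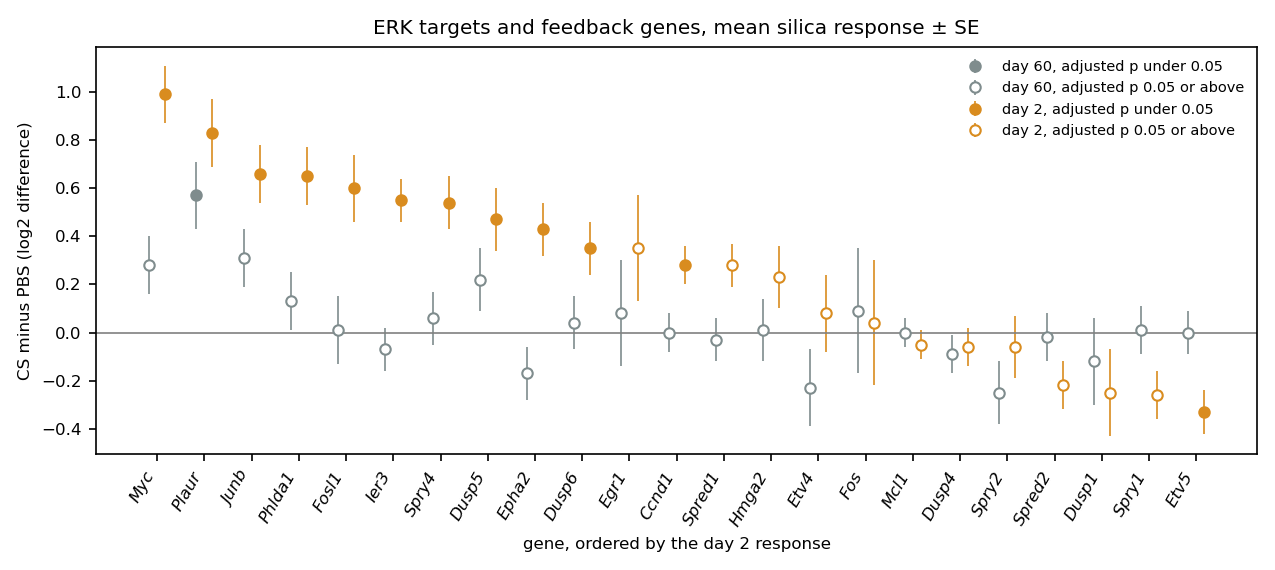
Mean silica response ± SE (y axis, CS minus PBS in log2 units) of 23 ERK targets and feedback genes, ordered by the day 2 response (x axis), at day 60 in grey and day 2 in orange; filled points passed the test. At day 2 the points run from 0.99 for Myc to -0.33 for Etv5, and at day 60 Plaur at 0.57 alone passed.

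Markers of other cells were counted with silica beside Ereg, Hbegf and these groups. Of all genes, 4.02% passed at day 60, with 3.35% higher, and at day 2 8.03% passed as higher and 4.37% as lower. At day 60, 9 of 11 monocyte and macrophage markers were higher, with sums of 14.17 to 14.69 in CS lungs against 13.55 and 13.68 in the pools. Of 10 neutrophil markers 4 were higher, with sums of 12.70 to 13.67 in CS lungs against 11.70 and 12.08. Of 6 regulatory T cell and ILC2 markers 4 were higher, with sums of 11.40 to 11.81 against 10.94 and 10.91. Of 8 fibroblast and mesothelium markers 1 was higher and 1 lower, with sums of 13.94 to 14.07 against 14.14 and 14.24. At day 2, 4 of 11 monocyte and macrophage markers were higher and 1 lower, with a summed log2 level of 13.81 to 13.88 in BLT1-/- CS lungs against 13.59 in their pool, and 14.04 to 14.32 in BLT1+/+ CS lungs against 13.64. Of 10 neutrophil markers 2 were higher, and of 8 heart muscle markers 5 were lower, with sums of 13.03 to 13.73 in BLT1-/- CS lungs against 14.30 and of 13.09 to 13.90 in BLT1+/+ CS lungs against 14.31. Of 8 fibroblast and mesothelium markers 3 were higher and 1 lower, with sums of 14.20 to 14.41 in CS lungs against 14.44 and 14.34 in the pools. Of 8 mast cell and basophil markers 2 were lower, with sums of 11.66 to 12.15 against 12.57 and 12.20. Of 11 lung epithelial markers 1 was higher at each day. The part of these markers in the results was not tested.

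The 3 genes most alike to Ereg in pattern, by Pearson's r over the 16 arrays, were Rwdd4a, the acyltransferase gene Mboat1 and Krt8, a keratin of simple epithelia, each at r = 0.97. Their responses at day 2 were 0.30, 0.92 and 0.65, all past the threshold. For Hbegf they were the chaperonin subunit genes Cct6a (r = 0.97) and Cct7 (r = 0.96) and the helicase gene Mcm8 (r = 0.96), with responses of 0.53, 0.37 and 0.71. These arrays share their groups, so the likeness is a description.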

How the data were processed

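Total lung RNA was measured on 16 arrays. The deposited values are log2 expression levels per probe set, normalized by the authors with RMA; the tool was Partek 6.6, per the submitters' processing notes. RNA was labelled with the Affymetrix WT kit, per the labels' protocols, which name neither the exact array model nor a genome build; probe sets were named through GEO's annotation of the platform. RMA gives all arrays 1 distribution (medians 8.25 to 8.34) and draws dim probe sets together. Of 35556 probe sets, 21789 carried 1 gene symbol, and the brightest per gene was kept, which left 19938 genes. Group means of the 8 groups were fitted with limma 3.58.1 in R 4.3.3 (lmFit, eBayes with trend) and tested two-sided, with Benjamini-Hochberg adjustment over all genes and a threshold of 0.05. The CS lungs give 8 residual degrees of freedom, to which eBayes added a median of 5.4; PBS pools were taken to have the spread of CS lungs. The labels name no animals, so p-values measure the spread between these samples only. Median standard errors were 0.10 for mean responses and 0.14 for single genotypes. Of 13 comparisons, 1 was added after seeing the data. Members and lists were chosen with earlier results of these data known. Named genes are the members, Ltb4r1, up to 4 called genes per list with the smallest p (else 1), and the 3 most correlated genes for each called member; the others are said to be chosen later. Same-numbered CS lungs deviated together at day 2 (r = 0.43, 0.20 and 0.34) but not at day 60 (0.09, 0.01 and 0.06). The main tests used no pairing. The number entered only the replicate block, an alternative fitted over both days, and the pairs counted for Ereg at day 2. The labels give no pairing. The alternatives were other normalizations, filters, weights, probe set means, single days, the replicate block, and each lung or pool left out (a fit without a pool is additive, so the other genotype supplies that day's response). The fitting was tested on simulated data.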

Additional observations from a re-analysis of the deposited data

Results flagged for a closer look

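The silica response of 2 ligands differed between the days by a test of the difference itself, day 60 minus day 2. For Ereg the difference was -2.30 ± 0.56 on the log2 scale (limma, adjusted p = 0.049), from responses of -0.26 at day 60 and 2.04 at day 2. For Hbegf it was -0.99 ± 0.16 (adjusted p = 0.00509), from -0.06 and 0.94. The Ereg call was lost in 9 of 12 fits that left out 1 CS lung, and in every fit that left out 1 pool. The Hbegf call held whichever CS lung was left out. It was lost without the BLT1-/- or the BLT1-/-KRasLA1 pool. The 6 CS lungs of day 60 had lower Ereg and lower Hbegf than those of day 2, except that 1 BLT1+/+ CS lung of day 2, with Ereg at 7.33, lay below 1 BLT1+/+KRasLA1 CS lung at 7.55. Day cannot be told apart from KRasLA1.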

How the results depend on the processing

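PBS pools set the main limit, since each is 1 array. In the mean silica response at day 2, the count of 2 members was unchanged under all alternatives except the fit without the BLT1-/- pool, which gave 0 and called 231 genes in all, against 2473 (1311 without the BLT1+/+ pool, 1589 from the arrays of that day alone). A fit without a pool is additive and takes the response from the other genotype alone, where 232 genes (BLT1+/+) and 1315 (BLT1-/-) were called, so the pool and the model changed together. In the mean response at day 60 it was 0 throughout. In BLT1-/- lungs at day 2 the count of 2 was 1 from the arrays of that day alone (Ereg, adjusted p = 0.0776, left the call). In BLT1+/+ lungs at day 2 the count of 0 was 2 with the replicate block, and ran from 0 to 2 with each CS lung left out. In the difference of responses between days the count of 2 was 1 after a second quantile normalization, cyclic loess or no trend, and 1 without the BLT1+/+KRasLA1 or the BLT1+/+ pool. It was 0 without the BLT1-/- or the BLT1-/-KRasLA1 pool, and ran from 1 to 2 with each CS lung left out. Between the pools of the days the count of 0 was 1 with array weights (Egfr, adjusted p = 0.0497). Between all day 60 and day 2 groups the count of 1 was 2 with array weights, 4 with the replicate block and 2 without the BLT1-/- pool, and ran from 1 to 3 with each CS lung left out; Egfr passed in every one of these fits. The replicate block changed no other count of members. It sets the unpaired pools at the mean of the blocks, so its errors are too small where a pool enters. Between CS lungs alone it rests on a pairing that the labels do not give. The number of genes called over all moved as well, from 152 to 1729 around 802 in the mean response at day 60, and from 39 to 911 around 469 in the difference of responses between days. It ran from 425 to 2647 around 1315 in BLT1-/- lungs and from 65 to 730 around 232 in BLT1+/+ lungs at day 2, from 69 to 876 around 234 in BLT1-/-KRasLA1 and from 43 to 676 around 152 in BLT1+/+KRasLA1 lungs, from 0 to 335 around 79 between pools, from 872 to 4105 around 2575 between all groups of the days, and between BLT1 genotypes from 1 to 14 around 8 at day 60 and from 1 to 7 around 4 at day 2. The cause of the other changes was not tested. No difference past the threshold reversed its sign under any alternative.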
